A study of Mus musculus with 4 samples.

Results

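The genes described here encode the carriers that move amino acids and amino-acid-derived transmitters across membranes, taken as every protein-coding gene of the deposited table whose symbol places it in the Slc1, Slc6, Slc7, Slc36, Slc38 or Slc43 family. The rule found 51 of the 25393 genes listed. They were measured by RNA-seq in untreated primary astrocytes from cortex and hippocampus of C57BL/6 mice, in 2 libraries from wild-type pups (WT) and 2 from pups with the genotype tet1-/- (labelled KO), a constitutive deletion of Tet1. The labels give isolation at postnatal day 1, with 2 mice per isolation, then culture on PDL for about 7 days, after which flasks were shaken at 260 rpm and RNA was taken 24 h later. The study describes its RNA-seq repeats as biological and reports more of them per genotype than the 2 libraries per label described here. The labels do not say which libraries came from separate cultures, so the p-values below measure the spread between these libraries, which may be technical.

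Reads on genes ran from 18749610 to 22673555 per library. The deposited values are reads per gene over a size factor of the library and are called normalized counts, and a count of 3 reads, taken as the floor of detection, equals 2.70 to 3.21 of them. Tet1, the targeted gene, had 266 and 121 normalized counts in WT, against 173 and 463 in the KO-labelled libraries, and reads counted over the whole gene include any transcript that lacks the deleted part. Every direction given for the KO-labelled libraries therefore rests on the label. The 2 KO-labelled libraries also were far apart: 28.6% of the 12868 genes averaging at least 50 normalized counts differed over 2-fold between them, against 10.7% between the 2 WT libraries. Each of the 10 astrocyte markers had more than 3 reads in each library, with a summed level of 1276 and 1208 FPKM in WT, 2471 FPKM in KO-labelled replicate 1 and 312 FPKM in KO-labelled replicate 2. Gfap alone gave 687 and 765 FPKM of it in WT, against 1871 and 117 FPKM in the KO-labelled libraries. Sox9, Aqp4, Ntsr2 and Aldh1l1 were below WT in both KO-labelled libraries. Gja1 was above WT in both, with 17.3 and 24.5 FPKM in WT, against 32.4 and 30.6 FPKM. Gfap, Aldoc, S100b, Fgfr3 and Slc4a4 overlapped between the labels. Xist, the RNA that coats the inactive X chromosome of female cells, had 8.54 and 0.92 normalized counts in WT, against 2896 and 13367 in the KO-labelled libraries, so genotype label and sex cannot be told apart.

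Astrocytes clear glutamate from the synapse with sodium-driven carriers of the Slc1 family, turn it into glutamine and release the glutamine through Slc38 carriers for neurons to take up. Carriers of the Slc6 family, driven by sodium and chloride, return GABA, glycine, taurine, creatine and monoamines to cells. Members of the Slc7 family bring in arginine and lysine on their own, or exchange large neutral amino acids and cystine as partners of a heavy chain such as Slc3a2. Slc36 and Slc43 carriers work without sodium, the former coupled to protons, and several of them act in the lysosome or carry branched-chain amino acids.

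Levels of the carriers were compared as FPKM (reads per gene scaled to the listed gene length and to all reads on genes of the library). Of the 51 members, 32 were detected, with a mean of at least 1 FPKM over the 4 libraries, and 24 had at least 1 FPKM in every library. Slc1a3, the glutamate carrier GLAST that marks astrocytes and radial glia, was the most abundant member, with 239 and 243 FPKM in WT, against 152 and 106 FPKM in the KO-labelled libraries. It lay above 99.3% of the listed genes and made up 41.3% and 40.9% of the summed FPKM of the members in WT, and 32.4% and 21.5% in the KO-labelled libraries. The summed FPKM of the members was 579 and 594 in WT, against 470 and 491 in the KO-labelled libraries. After Slc1a3 came Slc38a3, Slc1a4, Slc7a5, Slc7a2, Slc6a8, Slc38a10, Slc1a2, Slc6a6, Slc38a1, Slc38a2 and Slc38a7, which with Slc1a3 were the 12 members with a mean of at least 10 FPKM. Slc1a3 lay above the range of Slc38a3, and Slc38a2 above that of Slc38a7, while the other neighbours in this order overlapped. Slc6a8, at 22.9 to 24.8 FPKM, lay inside the ranges of Slc7a5, Slc7a2 and Slc1a2 and overlapped that of Slc38a10.

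**Figure D1:**
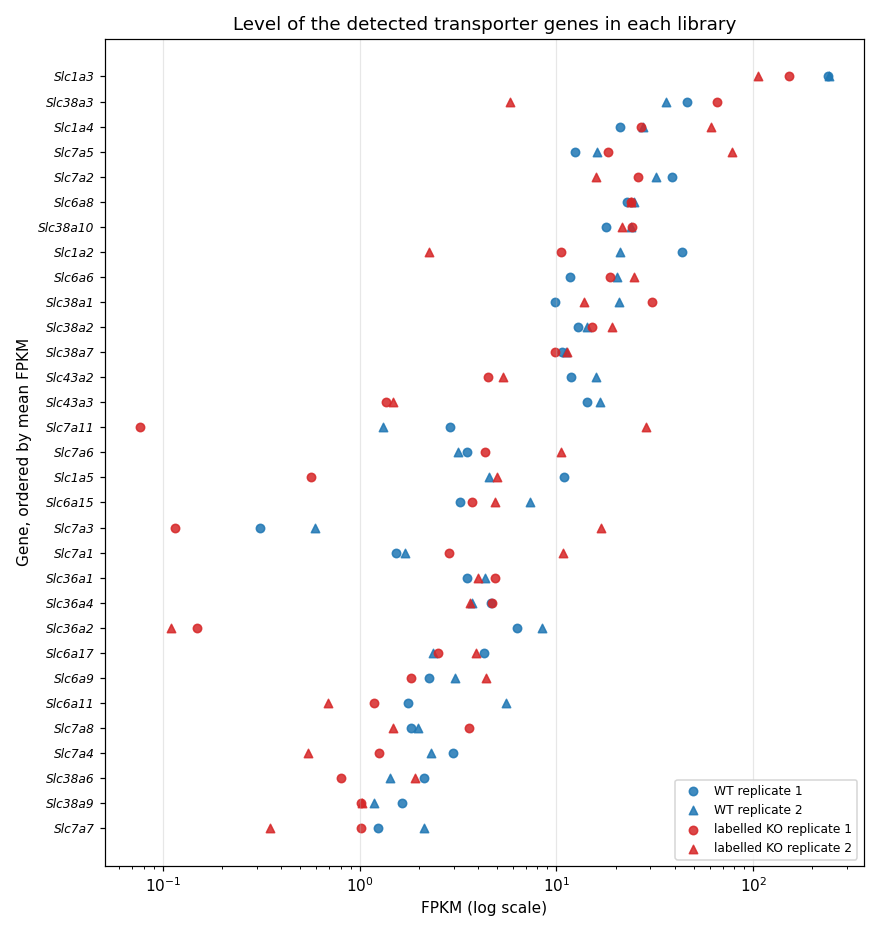
FPKM of 31 detected members on a log axis, 1 point per library (blue WT, red labelled KO, circles replicate 1, triangles replicate 2), ordered by the mean over the 4 libraries. Slc1a3 sits at the top at 106 to 243 FPKM, while Slc7a11, Slc7a3 and Slc38a3 have their red circle and red triangle far apart.

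At the other end, 11 members had at most 3 reads in every library. They include the carriers of dopamine (Slc6a3), serotonin (Slc6a4) and noradrenaline (Slc6a2), the proline carrier Slc6a7, the retinal glutamate carrier Slc1a7 and the glutamine carrier Slc38a5. A further 8 members stayed below the mean of 1 FPKM with more than 3 reads in some library, among them Slc1a6, the Purkinje cell glutamate carrier, and Slc1a1, the neuronal carrier EAAC1. Of the 59 genes in the role lists, 9 are not analysed here, and Slc6a21 belongs to no role list.

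Between the genotype labels, 41 members had a mean of at least 1 normalized count and were tested with limma on log2(normalized count + 1), on which differences of low genes come out too small. At an adjusted p under 0.05 limma called 0 of the 41, as it called 0% of the 22094 genes tested (Benjamini-Hochberg adjustment over all genes), and 8 members had an unadjusted p under 0.05, against 13.7% of all genes. Of these, 7 were lower in the KO-labelled libraries, where 9.18% of all tested genes were, and 1 was higher, where 4.54% were. The 7 included Slc1a2, Slc6a19, Slc7a4, Slc36a2, Slc43a2 and Slc43a3, and the 1 was Slc7a1. The number lower depended on single libraries, at 13 without KO-labelled replicate 1 and 4 without WT replicate 2. The number higher was 6 without KO-labelled replicate 1, 2 without KO-labelled replicate 2, and 0 without WT replicate 1 or without WT replicate 2. DESeq2 on the recovered reads called 6 of the 37 members it gave an adjusted p for, against 6.26% of all genes: 4 lower (Slc36a2, Slc43a3, Slc6a19 and Slc43a2) against 4.62% of all genes, and 2 higher (Slc7a1 and Slc7a3) against 1.64%. The quasi-likelihood test of edgeR on those reads called 0 members and 0% of all genes at an adjusted p under 0.05, with 10 members at an unadjusted p under 0.05, against 12.4% of all genes. Of those 10, 8 were lower, against 8.14%, and 2 were higher, against 4.23%. DESeq2 gave 12 members an unadjusted p under 0.05, against 12.6% of all genes, with 8 lower against 7.95% and 4 higher against 4.61%. The libraries of the labels did not overlap for 20 of the 41 members, 15 lower and 5 higher in the KO-labelled ones, and the same held for 47.9% of all tested genes, 25.4% lower and 22.5% higher. The 15 include Slc6a12 and Slc6a13, separated only by 1 read in WT replicate 1 against 0, under the floor of 3 reads. Among members with a mean of at least 10 normalized counts, 18 did not overlap. The share of all genes at that filter was not computed, so this count has no background beside it. The median log2 fold change of the tested members was -0.39, or -0.36 with those at 0 reads in both KO-labelled libraries set at the bound their floor allows, beside -0.07 for all tested genes. Over the 32 detected members alone it was -0.07, so the lower median of the tested members came with the weakly expressed ones. For 1 gene, exact permutation of 2 against 2 libraries reaches no two-sided p lower than 0.33.

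**Figure D2:**
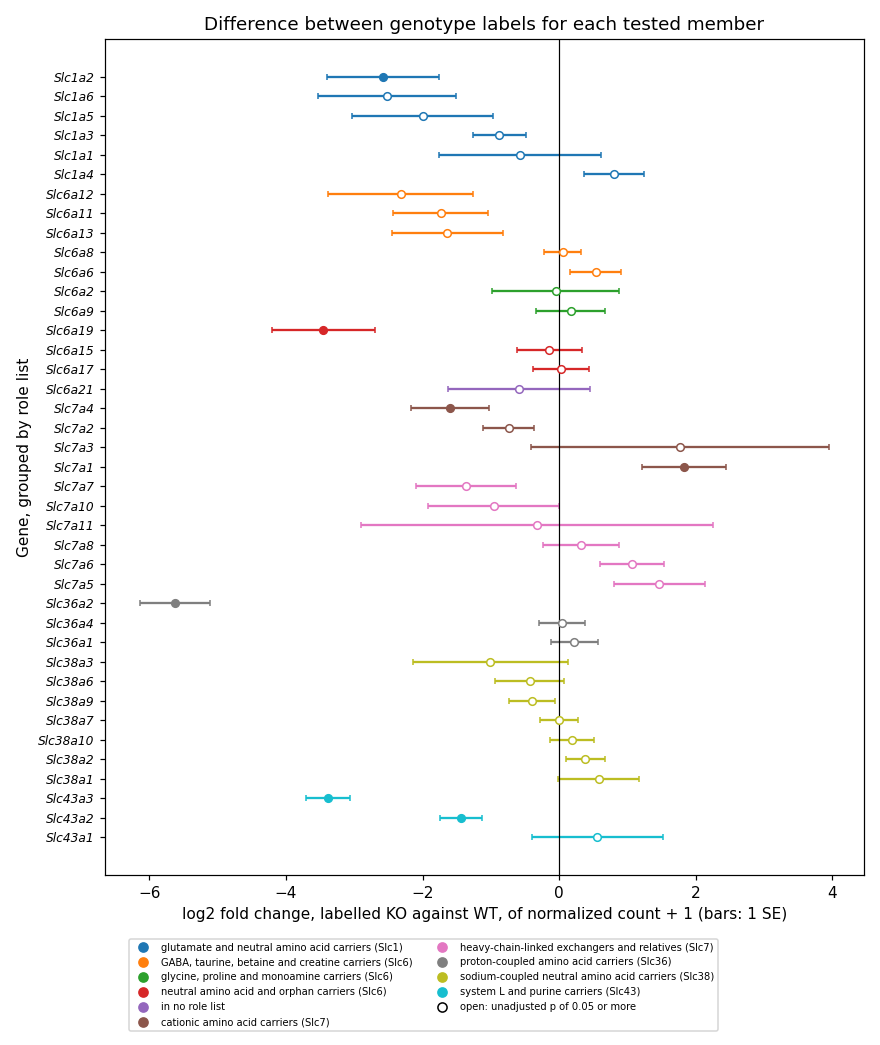
Log2 fold change (labelled KO against WT, of normalized count + 1) with 1 standard error from limma for 40 tested members, coloured by role list, filled where the unadjusted p was under 0.05. Slc36a2 (-5.62), Slc6a19 (-3.45) and Slc43a3 (-3.39) are farthest to the left, while Slc7a11 (-0.32) and Slc7a3 (1.77) have the longest bars.

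Of the 2 glutamate carriers typical of astrocytes, Slc1a2 was lower in the KO-labelled libraries at an unadjusted p under 0.05, and Slc1a3 did not pass that threshold. Slc1a2, which encodes GLT-1, the carrier responsible for most glutamate uptake in the adult forebrain, lies on chromosome 2 of GRCm38 from 102658659 to 102790784 (plus strand) and overlaps an antisense gene, and whether reads were counted by strand is not given in the sources used here. It had 11394 and 5793 normalized counts in WT, against 3078 and 597 in the KO-labelled libraries. Both KO-labelled libraries were below both WT libraries, and KO-labelled replicate 2 was the lowest. The log2 fold change was -2.58 (standard error, SE, 0.82, unadjusted p = 0.0232, limma adjusted p = 0.301), and leaving out each library moved it between -3.77 and -1.40. DESeq2 gave -2.23 with an adjusted p of 0.0685. Slc1a3 (chromosome 15 from 8634124 to 8710764, minus strand) overlaps 1 gene on its own strand and had 40855 and 43257 normalized counts in WT, against 28836 and 18194 in the KO-labelled libraries, again without overlap. Its log2 fold change was smaller than that of Slc1a2, at -0.88 (SE 0.39, unadjusted p = 0.0702, limma adjusted p = 0.406). Within each library Slc1a3 exceeded Slc1a2 per length, by 5.52 and 11.5 times in WT and by 14.4 and 46.9 times in the KO-labelled libraries.

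Other Slc1 members differed in direction. Slc1a4, a serine, alanine and cysteine exchanger, had 1645 and 2258 normalized counts in WT, against 2341 and 4818 in the KO-labelled libraries, with a log2 fold change of 0.80 (SE 0.44, limma adjusted p = 0.475). Its KO-labelled libraries were both above WT, replicate 1 by a small margin, and its share of the summed Slc1 FPKM went from 6.64% and 9.27% in WT to 14.1% and 35.0% in the KO-labelled ones. Slc1a5, a glutamine exchanger of growing cells, had 909 and 396 normalized counts in WT, against 52.4 and 423 in the KO-labelled libraries, so that KO-labelled replicate 2 lay between the WT libraries. Slc1a6 had 30.9 and 45.1 normalized counts in WT, against 15.0 and 1.80 in the KO-labelled libraries, the last under the floor. Across the 6 tested genes of the list, 1 was lower at an unadjusted p under 0.05, against 9.18% of all tested genes, 5 did not pass in either direction, and the median log2 fold change was -1.44. Among the astrocyte markers, 4 of the 10 were lower in both KO-labelled libraries, against 25.4% of all tested genes. Gja1 alone was higher in both, where 22.5% of all tested genes were. The part of such differences in the levels of Slc1a2 and Slc1a3 was not tested. In a bulk library, fewer cells of a type and less RNA per cell cannot be told apart.

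Slc6a11, the GABA carrier found mainly on astrocytes, had 178 and 587 normalized counts in WT, against 133 and 70.3 in the KO-labelled libraries, both below WT. The WT libraries differed from each other by more than WT replicate 1 differed from KO-labelled replicate 1, and the log2 fold change was -1.73 (SE 0.70, unadjusted p = 0.0517, limma adjusted p = 0.367). Slc6a12 and Slc6a13, carriers of betaine and GABA better known from kidney, liver and meninges, had 1 and 12 reads and 1 and 4 reads in WT, against 0 reads in both KO-labelled libraries, where a count of 0 allows up to 3 reads. Markers of meningeal fibroblasts had a summed level of 24.4 and 31.2 FPKM in WT, against 28.7 and 20.7 FPKM in the KO-labelled libraries, of which Pdgfrb gave the most in each library. Of the 8 genes, Col1a2 was higher and Dcn lower at an unadjusted p under 0.05 in limma. Over all tested genes, 4.54% passed as higher and 9.18% as lower. The 4 listed markers of choroid plexus and ependyma had 120 and 191 FPKM in WT, against 142 and 49.4 FPKM, of which Foxj1 gave the most in each library. Ttr, the choroid plexus transthyretin, had 0 and 2.28 FPKM in WT, against 0.040 and 19.1 FPKM in the KO-labelled libraries. Otx2 was lower at an unadjusted p under 0.05 in limma, as were 9.18% of all tested genes. The part of either in the levels of Slc6a12 and Slc6a13 was not tested.

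The taurine and creatine carriers of the same family were not lower in both KO-labelled libraries. Slc6a6, the taurine carrier, had 1989 and 3573 normalized counts in WT, against 3524 and 4234 in the KO-labelled libraries, with a log2 fold change of 0.54 (SE 0.38, limma adjusted p = 0.58). Slc6a8, the creatine carrier on the X chromosome, had 2387 and 2697 normalized counts in WT, against 2753 and 2508 in the KO-labelled libraries. Its log2 fold change of 0.05 (SE 0.27, limma adjusted p = 0.951) turned to just below 0 when libraries were scaled to equal sums or quantile normalized. The summed FPKM of the list was 46.0 and 62.8 in WT, against 49.98 and 52.2 in the KO-labelled libraries. Among the other Slc6 genes, the glycine carrier Slc6a9 had 230 and 327 normalized counts in WT, against 209 and 457 in the KO-labelled libraries. The neutral amino acid carrier Slc6a15 had 505 and 1185 normalized counts in WT, against 640 and 763 in the KO-labelled libraries, and the synaptic vesicle carrier Slc6a17 had 881 and 506 in WT, against 571 and 811 in the KO-labelled ones. Each of these 3 overlapped between the labels.

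The sharpest separations came from genes with low or moderate levels. Slc36a2, a proton-coupled carrier of proline, glycine and alanine (chromosome 11 from 55158470 to 55185077, minus strand), had 409 and 570 normalized counts in WT, against 10.7 and 7.21 in the KO-labelled libraries, a mean 54.6-fold higher in WT. Each library labelled KO was far below each WT library and still above the floor of 3 reads. The log2 fold change was -5.62 (SE 0.52, unadjusted p = 7.0e-05, limma adjusted p = 0.0777), between -5.88 and -5.37 with each library left out, edgeR gave an adjusted p of 0.0843 and DESeq2 one of 2.35e-17. Slc43a3, a carrier of purine nucleobases (chromosome 2 from 84936579 to 84958509, plus strand), had 1274 and 1558 normalized counts in WT, against 135 and 132 in the KO-labelled libraries, a mean 10.6-fold higher in WT. The libraries of each label lay close together, and the log2 fold change was -3.39 (SE 0.32, unadjusted p = 8.0e-05, limma adjusted p = 0.0777, edgeR adjusted p = 0.0843, DESeq2 adjusted p = 3.91e-12). The adjusted p of 0.0777 was the lowest of all tested genes and was shared by 30 of them. Neither Slc36a2 nor Slc43a3 overlaps another annotated gene.

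Slc43a2, a sodium-independent carrier of branched-chain amino acids and phenylalanine (chromosome 11 from 75531694 to 75577575, plus strand), had 2391 and 3317 normalized counts in WT, against 1000 and 1089 in the KO-labelled libraries. Its log2 fold change was -1.43 (SE 0.31, unadjusted p = 0.00447, limma adjusted p = 0.195, DESeq2 adjusted p = 0.0204). Slc6a19, the main neutral amino acid carrier of gut and kidney, had 32.0 and 69.9 normalized counts in WT, against 4.28 and 2.70 in the KO-labelled libraries, the last at the floor, and its adjusted p was 0.195 from limma and 0.00651 from DESeq2. Slc6a19 and Slc43a2 overlap an antisense gene each, as do Slc6a11, Slc7a2, Slc7a5 and Slc7a7, and Slc43a2 also overlaps 1 gene on its own strand. The other Slc36 genes overlapped between the labels. Slc36a1, a lysosomal carrier, had 397 and 509 normalized counts in WT, against 608 and 454 in the KO-labelled libraries, and Slc36a4 had 608 and 509 in WT, against 683 and 480 in the KO-labelled ones. Slc36a2 made up 43.4% and 51.0% of the Slc36 FPKM in WT, against 1.52% and 1.42% in the KO-labelled libraries.

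Markers of microglia moved in the same direction as these genes: 11 of the 12 were lower in both KO-labelled libraries, against 25.4% of all tested genes. Their median log2 fold change was -3.51, and their summed level was 36.9 and 69.5 FPKM in WT, against 5.42 and 2.46 FPKM in the KO-labelled libraries. P2ry12 was near or under the floor of 3 reads throughout, at 6.40 and 4.60 normalized counts in WT, against 0 and 0.90 in the KO-labelled libraries. Tmem119, the marker that overlapped between the labels, had 2.13 and 38.6 in WT, against 8.56 and 1.80. Between the WT libraries the summed microglial level was well above in replicate 2. Slc36a2, Slc43a2, Slc43a3 and Slc7a7 were also higher there, by 1.40, 1.39, 1.22 and 1.78 times in normalized counts. Being higher there was not particular to these genes. Slc38a10, Slc6a6 and Slc38a1, which overlapped between the labels, stood at 1.39, 1.80 and 2.21 times. Slc1a2 and Slc7a4, lower in both KO-labelled libraries, stood at 0.51 and 0.81 times. The microglial sum, Slc36a2 and Slc43a3 were each further apart between the labels than between the WT libraries. Slc7a7, an exchanger of cationic and neutral amino acids that macrophages express, had 82.2 and 146 normalized counts in WT, against 74.9 and 23.4 in the KO-labelled libraries, with a log2 fold change of -1.36 (SE 0.73, limma adjusted p = 0.469). The part of a microglial share in the levels of Slc36a2, Slc43a2, Slc43a3 and Slc7a7 was not tested.

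**Figure D3:**
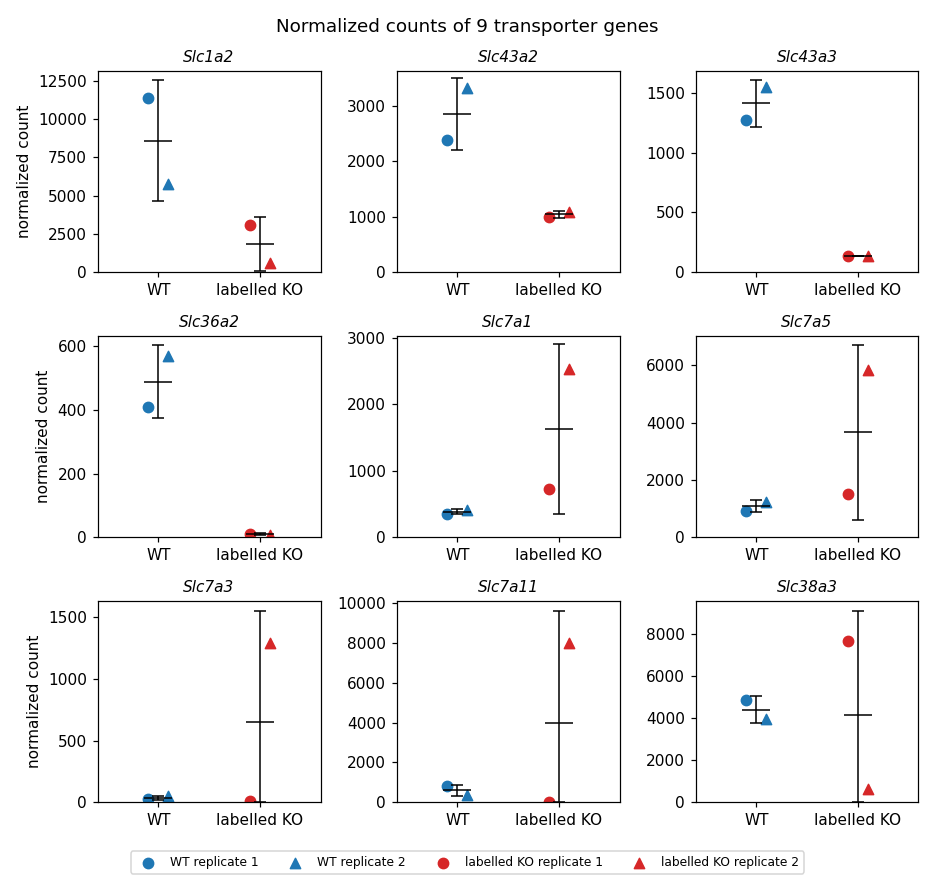
Normalized counts of 9 members in each library, with the mean and SD of each label (n = 2) in black, lower bars ending at 0 where they would pass it. The red points of Slc43a3 and Slc36a2 lie together near the bottom, those of Slc7a3 and Slc7a11 are split between replicate 1 near 0 and replicate 2 at 1289 and 7975, and Slc38a3 is split the other way.

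The carriers of cationic amino acids did not all differ in 1 direction. Slc7a1, the widely expressed arginine and lysine carrier (chromosome 5 from 148327410 to 148399904, minus strand), had 354 and 407 normalized counts in WT, against 727 and 2526 in the KO-labelled libraries. Both KO-labelled libraries were above WT, replicate 2 by the wider margin, with a log2 fold change of 1.83 (SE 0.62, unadjusted p = 0.0287, limma adjusted p = 0.316, DESeq2 adjusted p = 0.0326). With KO-labelled replicate 2 left out it was 0.93, and with KO-labelled replicate 1 left out it was 2.73. Slc7a2, a relative whose transcripts astrocytes and macrophages express, was the more abundant gene, with 7062 and 6107 normalized counts in WT, against 5263 and 2937 in the KO-labelled libraries (log2 fold change -0.74, SE 0.38, limma adjusted p = 0.454). Per length, Slc7a2 exceeded Slc7a1 by 25.2 and 18.9 times in WT, by 9.14 times in KO-labelled replicate 1 and by 1.47 times in KO-labelled replicate 2.

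Slc7a3, a cationic amino acid carrier on the X chromosome (from 101079210 to 101086020, minus strand), had 23.5 and 46.9 normalized counts in WT, 9.63 in KO-labelled replicate 1 and 1289 in KO-labelled replicate 2. The 2 KO-labelled libraries lay on either side of WT. DESeq2 called it higher (log2 fold change 4.20, adjusted p = 0.0354), whereas limma gave 1.77 (standard error 2.18, adjusted p = 0.752) and -1.69 without KO-labelled replicate 2, so its direction rests on that library. Slc7a4, a relative for which transport is not established, had 246 and 200 normalized counts in WT, against 116 and 46.0 in the KO-labelled libraries (log2 fold change -1.59, SE 0.57, unadjusted p = 0.0357, limma adjusted p = 0.341), and it overlaps a gene on the other strand. The summed FPKM of this list was 43.5 and 36.7 in WT, against 30.2 and 44.2 in the KO-labelled libraries. Slc7a2 held 88.9%, 87.4% and 86.0% of it in the WT libraries and KO-labelled replicate 1. In KO-labelled replicate 2 it held 36.03%, beside 38.2% for Slc7a3 and 24.5% for Slc7a1.

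Of the exchangers that work with a heavy chain, Slc7a5 and Slc7a6 were higher in both KO-labelled libraries, above all in replicate 2, and 0 of the 6 tested in the list had an unadjusted p under 0.05 in limma, against 13.7% of all tested genes. Slc7a5, the light chain of the exchanger that brings leucine and other essential amino acids into growing cells (chromosome 8 from 121881150 to 121907694, minus strand), had 924 and 1238 normalized counts in WT, against 1499 and 5823 in the KO-labelled libraries. Both KO-labelled libraries exceeded WT, with a log2 fold change of 1.47 (SE 0.67, unadjusted p = 0.0749, limma adjusted p = 0.415). Slc7a6, which exchanges arginine for neutral amino acids, had 322 and 301 normalized counts in WT, against 438 and 973 in the KO-labelled libraries (log2 fold change 1.07, SE 0.46, limma adjusted p = 0.397). Slc7a8, a second neutral exchanger, was highest in the other library, with 184 and 207 normalized counts in WT, 398 in KO-labelled replicate 1 and 149 in KO-labelled replicate 2.

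Slc3a2, the heavy chain that brings Slc7a5, Slc7a6, Slc7a7, Slc7a8 and Slc7a11 to the cell surface, had 8119 and 10811 normalized counts in WT, against 13905 and 9335 in the KO-labelled libraries (log2 fold change 0.28, adjusted p = 0.763 from limma). Since Slc7a5 and Slc43a2 lay in opposite directions, their ratio per length went from 1.05 and 1.01 in WT to 4.06 and 14.5 in the KO-labelled libraries. Of the summed FPKM of Slc7a5, Slc7a8, Slc43a1 and Slc43a2, the carriers that take up large neutral amino acids without sodium, Slc7a5 held 47.4% and 46.9% in WT, against 69.0% and 91.6% in the KO-labelled libraries. The 6 proliferation markers were higher in both KO-labelled libraries, as were 22.5% of all tested genes. Their summed level was 1.72 and 9.36 FPKM in WT, against 21.9 and 43.6 FPKM in the KO-labelled ones. Their part in the levels of Slc7a1, Slc7a5 and Slc7a6 was not tested.

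Slc7a11 had the widest spread of the members. It encodes the light chain of the cystine/glutamate antiporter, which imports cystine for glutathione synthesis and releases glutamate from astrocytes, and lies on chromosome 3 from 49892526 to 50443614 (minus strand). Its normalized counts were 799 and 381 in WT, 23.5 in KO-labelled replicate 1 and 7975 in KO-labelled replicate 2, a 339-fold difference between the KO-labelled libraries, one below and the other above both WT libraries. Its log2 fold change was -0.32 (SE 2.58, limma adjusted p = 0.969). It was 3.85 without KO-labelled replicate 1, -4.49 without KO-labelled replicate 2, and 2.76 with DESeq2 (adjusted p = 0.691), so these libraries give no direction for it. The gene spans 5 other annotated genes, 3 of them on the other strand.

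The promoter of Slc7a11 is shown because the gene is a textbook target of the amino acid response, in which the factor ATF4 binds an element with the core TGATGNAA. RefSeq promoter windows (GRCm38.p6, from 250 bases before to 50 bases after the start of transcription) were matched by symbol for 35 of the 51 members and searched on both strands. The core was found in 4 of these 35 genes, and in 3 of the 19 that were detected, beside 4.51% of all genes with a window. Those 3 are printed below 5′ to 3′ along the gene's strand, with the core in capitals on either strand (it reads TTGCATCA when it lies on the other strand).
Slc7a11, chr3:50443644-50443693, minus strand, bases -80 to -31: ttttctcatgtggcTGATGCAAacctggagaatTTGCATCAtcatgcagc
Slc1a4, chr11:20332710-20332739, minus strand, bases -26 to 4: agcctccagcgtgcctcctgcgTTGCATCA
Slc7a7, chr14:54418055-54418104, minus strand, bases -160 to -111: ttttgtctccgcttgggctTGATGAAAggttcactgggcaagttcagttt
The Slc7a11 stretch holds the core in both directions, while the Slc1a4 core spans the start site. Slc7a7 has a further match at the start site of this window, and a second, overlapping window holds that same match. Slc7a11 and Slc1a4 were highest in KO-labelled replicate 2, and Slc7a7 was lowest there, so the 3 genes that share these letters did not share an order of libraries. The antioxidant response element core TGACNNNGC was found in 9 of the 35 members with a window and in 14.0% of all genes with one. The 9 were Slc6a9, Slc6a11, Slc6a13, Slc6a16, Slc7a1, Slc7a6, Slc36a1, Slc38a2 and Slc43a1, and this core was not matched in the window of Slc7a11.

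The sodium-coupled Slc38 carriers, which carry glutamine and other neutral amino acids, gave 0 of 7 tested genes past an unadjusted p of 0.05 in limma, against 13.7% of all tested genes, and their median log2 fold change was 0.00. Slc38a3, through which astrocytes release glutamine (chromosome 9 from 107650634 to 107669530, minus strand), had 4850 and 3955 normalized counts in WT, 7670 in KO-labelled replicate 1 and 620 in KO-labelled replicate 2. The KO-labelled libraries differed 12.4-fold, on either side of WT. Its log2 fold change was -1.01 (SE 1.14, limma adjusted p = 0.73) and turned to 0.81 without KO-labelled replicate 2. Glul, the glutamine synthetase of astrocytes, had a similar order, with 27333 and 23487 normalized counts in WT, 33657 in KO-labelled replicate 1 and 6476 in KO-labelled replicate 2.

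Slc38a1, a glutamine carrier best known from neurons, had 3380 and 7486 normalized counts in WT, against 11754 and 4818 in the KO-labelled libraries, with no order between the labels. Slc38a2, its relative that cells raise when amino acids are scarce, had 2267 and 2627 normalized counts in WT, against 2980 and 3410 in the KO-labelled libraries. This was a small difference without overlap (log2 fold change 0.39, SE 0.28, limma adjusted p = 0.589). Among the lysosomal members, Slc38a9, the arginine sensor upstream of mTORC1, had 546 and 413 normalized counts in WT, against 378 and 345 in the KO-labelled libraries (log2 fold change -0.39, SE 0.33, limma adjusted p = 0.634). Slc38a7, the lysosomal glutamine carrier, had the narrowest range of normalized counts of the detected members, with 881 and 964 in WT, against 901 and 946 in the KO-labelled libraries. Slc38a10 had 2301 and 3209 normalized counts in WT, against 3445 and 2780 in the KO-labelled ones. The share of Slc38a3 in the summed Slc38 FPKM was 45.5% and 33.0% in WT, 44.5% in KO-labelled replicate 1 and 7.81% in KO-labelled replicate 2.

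The members differed more between the KO-labelled libraries than between the WT libraries. Of the 32 members with a mean of at least 50 normalized counts, 16 (50%) differed by more than 2-fold between the KO-labelled libraries, against 28.6% of all genes at that level, and 5 (15.6%) between the WT libraries, against 10.7%. Of the 16, 9 were higher in replicate 2 and 7 in replicate 1, and 13 did not differ 2-fold between the WT libraries. On the log2(normalized count + 1) scale, Slc7a11, Slc7a3 and Slc38a3 differed over 8-fold between the KO-labelled libraries, against 3.19% of all genes. Between the WT libraries 0 members did, against 0.373%. Slc1a5 fell just short between the KO-labelled libraries on that scale, and differed 8.06-fold without the added count. Among the 32 detected members, the highest FPKM was in WT replicate 1 for 7, in WT replicate 2 for 9, in KO-labelled replicate 1 for 6 and in KO-labelled replicate 2 for 10, and the lowest was in these libraries for 10, 2, 9 and 11. The 10 members with their highest FPKM in KO-labelled replicate 2 were Slc1a4, Slc6a6, Slc6a9, Slc7a1, Slc7a3, Slc7a5, Slc7a6, Slc7a11, Slc38a2 and Slc38a7. By normalized counts, Slc38a7 was highest in WT replicate 2 instead. The members lowest in KO-labelled replicate 2 included Slc1a2, Slc1a3, Slc6a11, Slc7a2, Slc7a4, Slc7a7, Slc7a8, Slc36a2, Slc36a4 and Slc38a3, so members of the Slc1, Slc6, Slc7 and Slc38 families stood on both sides.

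**Figure D4:**
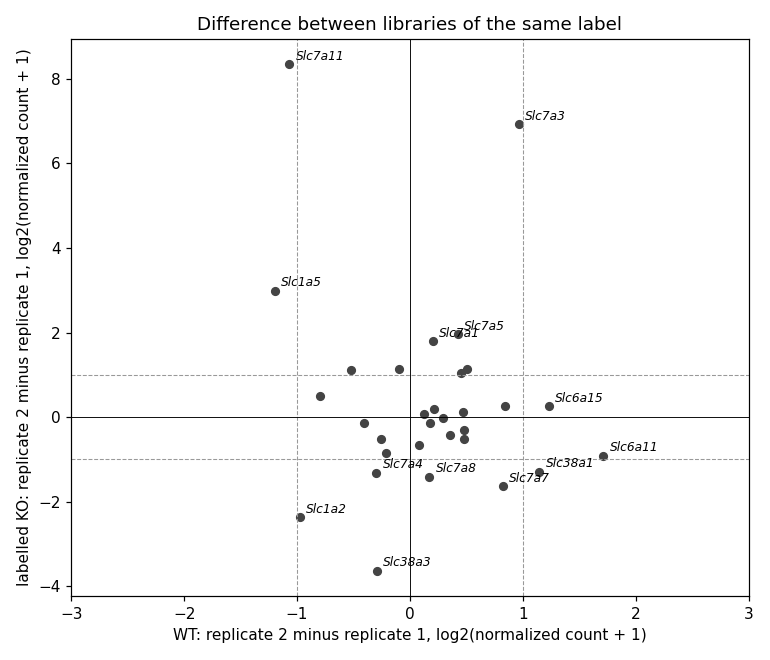
Difference between replicate 2 and replicate 1 in log2(normalized count + 1), for WT on the x axis and labelled KO on the y axis, for 31 members with a mean of at least 50 normalized counts; dashed lines mark 2-fold. Points spread over a wider range along the y axis, with Slc7a11 and Slc7a3 at the top and Slc38a3 at the bottom.

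Other genes of the same pathways were taken from lists fixed beside the members, and each count below is at an unadjusted p under 0.05 in limma, which 9.18% of all tested genes passed as lower and 4.54% as higher. Of the 12 genes of glutamate, glutamine and GABA metabolism, 1 was lower, Gad1, which makes GABA from glutamate, with 152 and 74.5 normalized counts in WT, against 15.0 and 29.7 in the KO-labelled libraries (log2 fold change -2.27, adjusted p = 0.273 from limma, DESeq2 adjusted p = 0.0372). Of the 4 vesicular transmitter carriers tested, 1 was higher, Slc17a8, at 1.07 and 1.84 normalized counts in WT, against 10.7 and 7.21 in the KO-labelled libraries. Both WT values were under the floor of 3 reads, the limma adjusted p was 0.348, and DESeq2 gave no adjusted p. Of the 8 genes of glutathione synthesis and cystine use, 1 was lower, Gclc, the catalytic subunit of the first enzyme of that synthesis. Gclc had 7890 and 7594 normalized counts in WT, against 3402 and 3859 in the KO-labelled libraries (limma adjusted p = 0.234, DESeq2 adjusted p = 0.0852). Gclm, the partner subunit of Gclc, had 3522 and 2493 in WT, 2311 in KO-labelled replicate 1 and 6106 in KO-labelled replicate 2, the library in which Slc7a11 was highest.

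Of the 14 genes of lysosomal amino acid sensing, 1 was lower, Rragd, a GTPase that recruits mTORC1. Rragd had 3312 and 3534 normalized counts in WT, against 2019 and 968 in the KO-labelled libraries (limma adjusted p = 0.307, DESeq2 adjusted p = 0.205). Of the 9 genes of the amino acid response, 1 was higher and 1 was lower. Phgdh, the first enzyme of serine synthesis, was the higher, with 1535 and 2727 normalized counts in WT, against 3869 and 6608 in the KO-labelled libraries (limma adjusted p = 0.314, DESeq2 adjusted p = 0.16). Ddit3, a stress-induced transcription factor, was the lower, with 594 and 563 in WT, against 364 and 263 in the KO-labelled ones (limma adjusted p = 0.355, DESeq2 adjusted p = 0.337). Asns, which makes asparagine, had 205 and 313 normalized counts in WT, 226 in KO-labelled replicate 1 and 969 in KO-labelled replicate 2, and Chac1, which breaks down glutathione, had 187 and 183 in WT, 155 in replicate 1 and 55.9 in replicate 2 of the KO-labelled libraries. Genes of this list were not ordered alike over the libraries.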

How the data were processed

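The groups and replicate numbers of the libraries come from the sample labels. Reads were aligned to mm10 by the authors. The aligner, counting program and annotation release are not given in the sources used here. The deposited signal of a gene in a library, named FPKM by the authors, is its read count over that library's size factor. Whole reads were recovered, with 100% of values whole within 0.01 read. Log2 fold changes, p-values, adjusted p-values and genotype means deposited by the authors were not used.

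Labels were compared with limma 3.58.1 in R 4.3.3 (variance trend, no block), keeping 22094 genes whose mean reached 1 normalized count, after adding a pseudocount of 1. edgeR 4.0.16 called 0 genes at an adjusted p under 0.05 (2733 at an unadjusted p under 0.05) and DESeq2 1.42.0 called 1088, both on recovered reads. These fits were also run on simulated counts drawn with the same spread in both labels. The KO-labelled libraries were further apart than that, so the simulation does not measure how the fits perform on these data. Positions of 50 of the 51 members match GENCODE M21 (GRCm38), which gave the overlapping genes.

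The members and lists were chosen with earlier results of these data known. Values per library are given for members with an unadjusted limma p under 0.05, the 20 highest by mean FPKM, those called by DESeq2 or edgeR and 7 with textbook roles in astrocytes; other values were chosen after they were seen. Alternatives were pseudocounts of 0.1 and 0.01, other filters and scalings, a fit without a trend, a replicate block, edgeR, DESeq2 and each library left out. The values of 1 member are not reported here, though the counts include it.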

Additional observations from a re-analysis of the deposited data

How the results depend on the processing

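With 2 libraries per label, spreads rest on few values. In every limma fit run, 0 members passed an adjusted p under 0.05, while DESeq2 called 4 lower and 2 higher. At an unadjusted p under 0.05, 1 member was higher in the main comparison, 2 with quantile normalization, 2 with edgeR, 4 with DESeq2 and 0 without a variance trend, and from 0 to 6 with each library left out. The number lower was 7, and from 4 to 13 with each library left out. With the replicate number as a block, 2 were higher. Same-numbered libraries share only a number (correlation of their deviations -0.08 over 22094 genes), and the block changed no call at an adjusted p under 0.05. At a mean of at least 5 FPKM in place of 1, 18 members counted as detected. The median log2 fold change of the members lay between -0.44 and -0.086 under the alternatives, against -0.39.

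Log2 fold changes of 33 members were followed over 15 alternatives. The direction held in all of them for 20 members and turned in at least 1 for 13, for reasons that were not tested. Scaling to equal sums gave Slc36a4 -0.0094, Slc38a7 -0.048, Slc6a17 -0.024 and Slc6a8 -4.1e-05. Quantile normalization gave Slc38a7 -0.043 and Slc6a8 -0.070. edgeR gave Slc38a7 -0.038, Slc6a17 -0.057 and Slc7a11 2.70, and DESeq2 gave Slc6a17 -0.0053 and Slc7a11 2.76. Leaving out 1 library at a time gave ranges for Slc36a4 from -0.21 to 0.29, Slc38a1 from -0.062 to 1.22, Slc38a10 from -0.053 to 0.43, Slc38a3 from -2.82 to 0.81, Slc38a6 from -0.99 to 0.13, Slc38a7 from -0.061 to 0.067, Slc6a15 from -0.76 to 0.47, Slc6a17 from -0.37 to 0.43, Slc6a8 from -0.037 to 0.14, Slc6a9 from -0.39 to 0.73, Slc7a11 from -4.49 to 3.85, Slc7a3 from -1.69 to 5.24 and Slc7a8 from -0.39 to 1.03. A library left alone in its label was taken to vary like the other label.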
